A study of Takifugu alboplumbeus with 24 samples.

Results

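The gene bhlhe41, which encodes the clock repressor also known as DEC2, was followed over 8 weekly samplings in the brain of the grass puffer, Takifugu alboplumbeus, whose spawning follows the tides. It is 1 row of the 24935 gene rows of the deposited expression table, found by its symbol, and it was chosen by its FPKM values in these same libraries, which were low at full moon. Those values are therefore given as a description, without a test. Beside it stand 2 related rows, bhlhe40 (DEC1) and a gene annotated as bhlhe40-like (LOC101063749), and 42 rows of other clock genes.

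The fish were wild males from Minamichita, Japan, with no treatment named. A single brain piece holding hypothalamus, pituitary and ventral telencephalon was taken in the laboratory at around 19:00 between May and July 2020. The dates were the new moon and the waxing moon in May, the full moon, waning moon, new moon and waxing moon in June, and the full moon and waning moon in July, with 3 libraries each and 24 in all. New and full moon are the spring tides, with the large tidal range, and waxing and waning moon are the neap tides. A library is called a fish below, although the labels do not state how many animals went into one, so the spread between libraries may be partly technical. Each moon phase was sampled on 2 dates, so that the phase and whatever else those dates shared cannot be told apart. Sampling at a fixed hour also means that a change in the level of a daily rhythm and a shift in its timing cannot be told apart.

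Vertebrate clocks run on a loop in which CLOCK and BMAL proteins switch on genes through E-box sites, among them the period and cryptochrome genes, whose proteins then block CLOCK and BMAL. The DEC proteins are basic helix-loop-helix factors with an Orange domain. In mammals they bind the same E-boxes, repress them, and are themselves switched on by CLOCK and BMAL. Other arms of the network are the REV-ERB and ROR nuclear receptors, which act on the BMAL genes, and the PAR bZIP factors TEF, HLF and DBP, which carry the rhythm to output genes through D-box sites.

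Expression was given as FPKM, fragments scaled to transcript length and to library size, which allows levels to be set side by side between genes. In the new moon of May the 3 fish had bhlhe41 levels of 9.03, 10.41 and 10.73 FPKM. In the waxing moon of May they had 11.39, 14.3 and 10.75 FPKM. In the full moon of June the levels were 4.58, 3.88 and 4.03 FPKM, below every fish of the preceding dates.

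A week later, in the waning moon of June, the levels were 13.06, 13.34 and 12.21 FPKM. The new moon of June gave 10.09, 15.71 and 11.07 FPKM, and the waxing moon of June 11.45, 8.83 and 12.05 FPKM. Thus bhlhe41 stood at its earlier level on the 3 dates between the full moons, and the highest fish of the series, at 15.71 FPKM, was a new-moon fish.

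In the full moon of July the levels were again low, at 3.49, 4.55 and 5.33 FPKM. The waning moon of July gave 8.42, 8.65 and 9.9 FPKM, the lowest date mean outside the full moons. All 6 full-moon fish, between 3.49 and 5.33 FPKM, lay below all 18 other fish, between 8.42 and 15.71 FPKM.

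**Figure D1:**
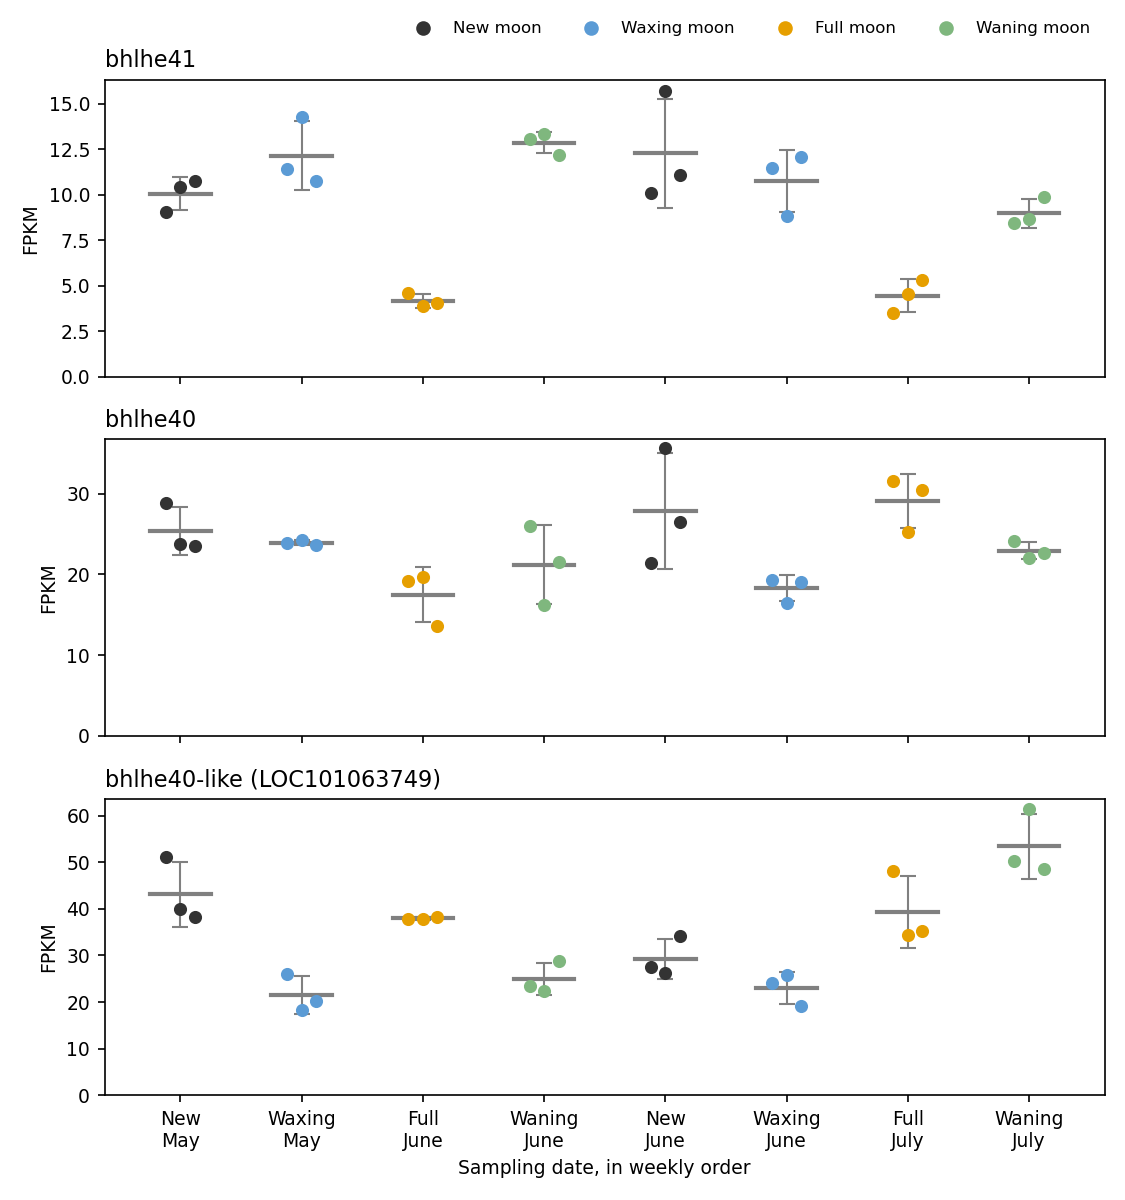
Level of bhlhe41 (top), bhlhe40 (middle) and the bhlhe40-like gene LOC101063749 (bottom) in FPKM on the vertical axes, by sampling date in weekly order. Points are fish coloured by moon phase, and bars give the mean and SD of 3 fish. The full-moon fish lie at 3.49 to 5.33 FPKM for bhlhe41, apart from all others, while for the other genes they overlap with the other dates.

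Ordered by mean level, the dates ran from the waning moon of June (12.87 ± 0.59 FPKM, SD, n = 3) and the new moon of June (12.29 ± 3.00) through the waxing moon of May (12.15 ± 1.89), the waxing moon of June (10.78 ± 1.71) and the new moon of May (10.06 ± 0.90) to the waning moon of July (8.99 ± 0.80). The full moons of July (4.46 ± 0.92) and June (4.16 ± 0.37) came last. The ranges of neighbours in this order overlapped, except between the waning moon of July and the full moon of July. The mean of the full-moon dates was 4.31 FPKM and that of the other dates 11.19 FPKM, a ratio of 0.385.

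On the log2(FPKM + 1) scale, new moon exceeded full moon by 1.19 (SE 0.16), and spring tides were lower than neap tides by a log2 difference of -0.60 (SE 0.11). Both numbers hold the same full-moon dates, and the new-moon dates, with a mean of 11.17 FPKM, were close to the neap mean of 11.20 FPKM. Differences between dates made up 92.2% of the sum of squares of the gene over the 24 fish, against 63.7% for bhlhe40 and 87.0% for the bhlhe40-like gene. The share of bhlhe41 includes the full-moon values by which it was chosen, so it is not a separate result. The share over all genes was not computed.

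Among the 17058 genes with a mean of at least 1 FPKM, full-moon fish all lay below all other fish for 9 genes (0.0528%) and all above for 21 genes (0.123%). Of the 9, bhlhe41 had the widest gap, 0.57 on the log2 scale between the highest full-moon fish and the lowest other fish. The next was 0.088, for LOC101072684, annotated as leucine-rich repeat neuronal protein 1-like, at 8.34 against 8.93 FPKM. By the limma fit over all genes, 3 genes (0.0176% of those tested) differed between new and full moon at an adjusted p under 0.05, 2 higher at new moon (0.0117%) and 1 lower (0.00586%). They were bhlhe41, LOC101072613 (inorganic pyrophosphatase-like) and kcnma1, which encodes the large-conductance calcium-activated potassium channel. The choice of bhlhe41 used its full-moon values, so neither the rank of its gap nor its presence among these genes is a separate result.

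Between waxing and waning moon, and in the weekly trend, bhlhe41 gave no difference that passed the test. Only the contrast of waxing and waning moon lies outside the pattern that chose the gene. Waxing moon, at 8.83 to 14.3 FPKM, and waning moon, at 8.42 to 13.34 FPKM, overlapped. The log2 difference was 0.07 (SE 0.16, adjusted p = 0.999 in the limma fit), and its sign turned without the waxing moon of May (-0.0082) or the waning moon of July (-0.17). In that contrast 0 genes passed by limma (0.0% of those tested) and 486 (2.85%) had an unadjusted p under 0.05. Over the 8 samplings the log2 level changed by -0.08 per week with tide in the model (SE 0.043, adjusted p = 0.635), in a contrast where limma called 0 genes (0.0%) and 1446 (8.48%) had an unadjusted p under 0.05. That model held tide but not moon phase, so new and full moon were pooled. The low full-moon values therefore enter both the slope and its SE, and the trend is not separate from them.

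The closest relative, bhlhe40, was expressed more strongly, and its full-moon fish overlapped with the others. Its levels were 28.82, 23.81 and 23.53 FPKM in the new moon of May, 23.94, 24.23 and 23.64 FPKM in the waxing moon of May, and 19.21, 19.7 and 13.6 FPKM in the full moon of June. The waning moon of June gave 25.97, 16.19 and 21.5 FPKM and the new moon of June 21.47, 35.63 and 26.43 FPKM. In the waxing moon of June the levels were 19.36, 16.5 and 19.09 FPKM, in the full moon of July 31.59, 25.24 and 30.39 FPKM, and in the waning moon of July 24.11, 22.06 and 22.6 FPKM.

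The full moon of June was thus the lowest date of bhlhe40 and the full moon of July the highest, and the means of full-moon and other dates were 23.29 and 23.27 FPKM. The log2 difference between spring and neap tide was 0.17 (SE 0.14, adjusted p = 0.440 by limma), in a contrast where 961 of 17058 genes (5.63%) passed. The new-to-full difference was 0.22 (SE 0.20, adjusted p = 0.686). The tide difference turned to -0.18 with the summed FPKM of each library in the model and to -0.0041 without the full moon of July, and the new-to-full difference turned to -0.14 without the full moon of June.

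The bhlhe40-like gene was the most abundant of these genes on most dates. It had 51.16, 39.92 and 38.35 FPKM in the new moon of May, 26.05, 18.29 and 20.17 FPKM in the waxing moon of May, and 37.71, 37.83 and 38.3 FPKM in the full moon of June. The waning moon of June gave 23.52, 22.3 and 28.8 FPKM, the new moon of June 27.45, 26.16 and 34.24 FPKM, and the waxing moon of June 24.09, 25.78 and 19.16 FPKM. In the full moon of July it stood at 48.13, 34.43 and 35.18 FPKM, and in the waning moon of July at 50.3, 61.42 and 48.51 FPKM, its highest date.

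Full-moon levels of this gene lay within the range of the other dates. Its log2 differences were 0.37 by tide (SE 0.16, adjusted p = 0.151 by limma), -0.12 between new and full moon (SE 0.23, adjusted p = 0.876) and -0.70 between waxing and waning moon (SE 0.23, adjusted p = 0.997). The tide difference was 0.17 with the summed FPKM in the model, 0.098 without the waning moon of June and 0.63 without the waning moon of July. The difference between waxing and waning moon was -1.23 and -0.16 without those same dates. The new-to-full difference turned to 0.023 with the summed FPKM in the model and to 0.15 without the new moon of June. Of the summed FPKM of all these DEC genes, bhlhe41 made up 6.99% ± 0.59 in the full moon of June and 6.27% ± 1.81 in the full moon of July (SD, n = 3), against date means of 10.6% to 22.1% on the other dates. These shares contain the full-moon values by which bhlhe41 was chosen, so they are not a separate result.

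Of the 42 listed clock rows, 39 had a mean of at least 1 FPKM and were tested. Seen by tide, 7 passed (17.9%, against 5.63% of all genes), 3 higher at spring tide and 4 lower, where all genes gave 225 higher (1.32%) and 736 lower (4.31%). At an unadjusted p under 0.05 there were 16 listed genes of 39, and 26.5% of all genes. The median log2 difference was -0.0093 over the listed genes and -0.039 over all genes. The list was chosen with earlier results of these fish known and is not independent evidence. The count depends on how dates are treated: it was 0 with date means as samples (1 gene called over all genes) and 0 with the summed FPKM in the model (5 genes over all). Among markers of cell types, 2 of 7 brain endothelium markers, 1 of 9 pituitary hormone genes and 1 of 6 oligodendrocyte markers passed by tide, where 5.63% of all genes did. None passed among 12 neuron, 10 astroglia, 7 microglia, 5 erythrocyte and 1 photoreceptor markers. Pituitary hormone transcripts, scored as the mean log2(FPKM + 1) of 8 genes, averaged 10.3 to 11.1 on the spring-tide dates and 8.55 to 9.62 on the neap-tide dates. These date means did not overlap, but single fish of the tides did. The lowest mean, 8.55 in the waxing moon of May (SD 3.5), held a fish at 4.542. The other fish of that date, at 10.706 and 10.39, lay above the lowest spring-tide fish, at 9.937. The part of these markers and of the pituitary score in the tide differences given here for any gene was not tested.

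That count was also moved by single fish and dates. It was 3 without fish 1 or 3 of the new moon of May, fish 2 of the full moon of June, fish 2 of the waning moon of June, fish 1 of the waxing moon of June, fish 2 of the full moon of July, or fish 2 or 3 of the waning moon of July. It was 4 without fish 1 of the full moon of June, fish 3 of the waning moon of June, fish 1 of the new moon of June, fish 3 of the waxing moon of June or fish 3 of the full moon of July. Leaving out a date gave 0 (new moon of May or waning moon of July), 2 (waning, new or waxing moon of June), 3 (either full moon) or 17 (waxing moon of May).

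Of the activators, 1 of 6 passed by tide, where 5.63% of all genes did. This was arntl2 (LOC101065207), which encodes a BMAL partner of CLOCK and was higher at spring tide. It had 13.47, 13.72 and 14.68 FPKM in the full moon of June and 11.28, 11.4 and 11.66 FPKM in the full moon of July, against 7.96 to 11.26 FPKM in the other 18 fish. It was the only one of the 39 listed genes in which all full-moon fish lay above all others (0.123% of all genes), by a narrow margin of 11.28 against 11.26 FPKM. In none of the 39 did they all lie below (0.0528% of all genes). Its tide difference was 0.24 (SE 0.069, adjusted p = 0.0480 by limma). The new-moon mean, 9.99 FPKM, was close to the neap mean of 9.44 FPKM, against 12.70 FPKM at full moon, so this difference rests mostly on the full-moon dates. The tide difference fell to 0.11 under TPM scaling (adjusted p = 0.311), and the call was lost without 18 of the 24 fish, 1 at a time. Between new and full moon the difference was -0.31 (SE 0.098, adjusted p = 0.245). A second arntl2 row (LOC101072137) had a tide difference of -0.027 (SE 0.12, adjusted p = 0.910).

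Of the 12 period and cryptochrome repressors tested, 3 passed by tide, where 5.63% of all genes did. A per2 gene (LOC115246449) was at 5.36 to 10.93 FPKM (median 8.47) at spring tide and 2.89 to 7.79 FPKM (median 4.10) at neap tide, a log2 difference of 0.77 (SE 0.15, adjusted p = 0.0134 by limma) that was 0.49 with summed FPKM in the model (adjusted p = 0.700). In zebrafish per2 is known as a light-induced period gene. Another per2 gene (LOC101061913) was low in all fish, at 1.31 to 4.16 FPKM, and higher at spring tide by 0.48 (SE 0.13, adjusted p = 0.0411). That call was lost under TPM scaling (adjusted p = 0.0589) and without 15 of the 24 fish, 1 at a time, and the difference was 0.31 with summed FPKM in the model (adjusted p = 0.862). The row named per2 differed by -0.030 (SE 0.078, adjusted p = 0.843). New-moon and full-moon levels of the per2 genes that passed overlapped. Their phase means were higher at new and full moon than at either neap phase, where bhlhe41 was low at full moon only. Their full moon of June was close to the waxing moon of May, at means of 6.95 and 6.55 FPKM for LOC115246449 and 2.60 and 2.42 FPKM for LOC101061913. The full moon of July was the highest date of both, at 10.07 and 3.94 FPKM.

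The period gene per3 (LOC101078561) was lower at spring tide by a log2 difference of -0.33 (SE 0.092, adjusted p = 0.0386 by limma). It had 5.88, 6.51 and 6.61 FPKM in the full moon of June and 7.95, 8.18 and 8.84 FPKM in the full moon of July, while the other 18 fish had 8.84 to 16.56 FPKM. The new-moon mean, 12.08 FPKM, was close to the neap mean of 12.24 FPKM, so the lower spring level rests on the full-moon dates. The call was lost with quantile-normalized values (adjusted p = 0.0659), with median-ratio scaling (0.0653) and without 9 of the 24 fish, 1 at a time. Its new-to-full difference was 0.65 (SE 0.13, adjusted p = 0.110).

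Among the nuclear receptors 1 of 9 passed by tide, where 5.63% of all genes did. This was nr1d2 (LOC101077948), a REV-ERB repressor of the BMAL genes, and it was lower at spring tide. Full-moon fish had 22.77 to 37.63 FPKM and the others 34.99 to 46.64 FPKM. The new-moon mean, 43.64 FPKM, was not below the neap mean of 42.63 FPKM, so the lower spring level rests on the full-moon dates. The tide difference was -0.26 (SE 0.077, adjusted p = 0.0488 by limma) and the new-to-full difference 0.59 (SE 0.11, adjusted p = 0.0662). The tide call was lost with a minimum mean of 5 FPKM (adjusted p = 0.0556), under median-ratio scaling (0.116), under quantile normalization (0.0597) and without 19 of the 24 fish, 1 at a time. A second nr1d2 row (LOC445936) had a tide difference of 0.13 (SE 0.17, adjusted p = 0.654).

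Of the 7 PAR bZIP factors and their antagonist, 2 passed by tide (5.63% of all genes did), both annotated as tef-like and both lower. For LOC115246496 the levels were 3.31 to 6.76 FPKM at full moon, 5.35 to 9.13 FPKM at new moon, 7.46 to 11.35 FPKM at waxing moon and 7.32 to 9.93 FPKM at waning moon, with a tide difference of -0.59 (SE 0.12, adjusted p = 0.0182 by limma). For LOC101073097 they were 10.06 to 21.7 FPKM at full moon and 19.02 to 42.55 FPKM in the other fish, with a tide difference of -0.67 (SE 0.16, adjusted p = 0.0234). The row named tef, the most abundant of the tef rows with a mean of 63.4 FPKM, differed by tide by 0.070 (SE 0.14, adjusted p = 0.779) and had an r of -0.16 with bhlhe41 over the 24 fish. None of the 5 kinases and ubiquitin ligases of the clock passed by tide, and 3 of them had an unadjusted p under 0.05. Of all genes 5.63% passed by tide and 26.5% had an unadjusted p under 0.05. Each family holds few genes, so these counts by family were not tested against those shares.

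**Figure D2:**
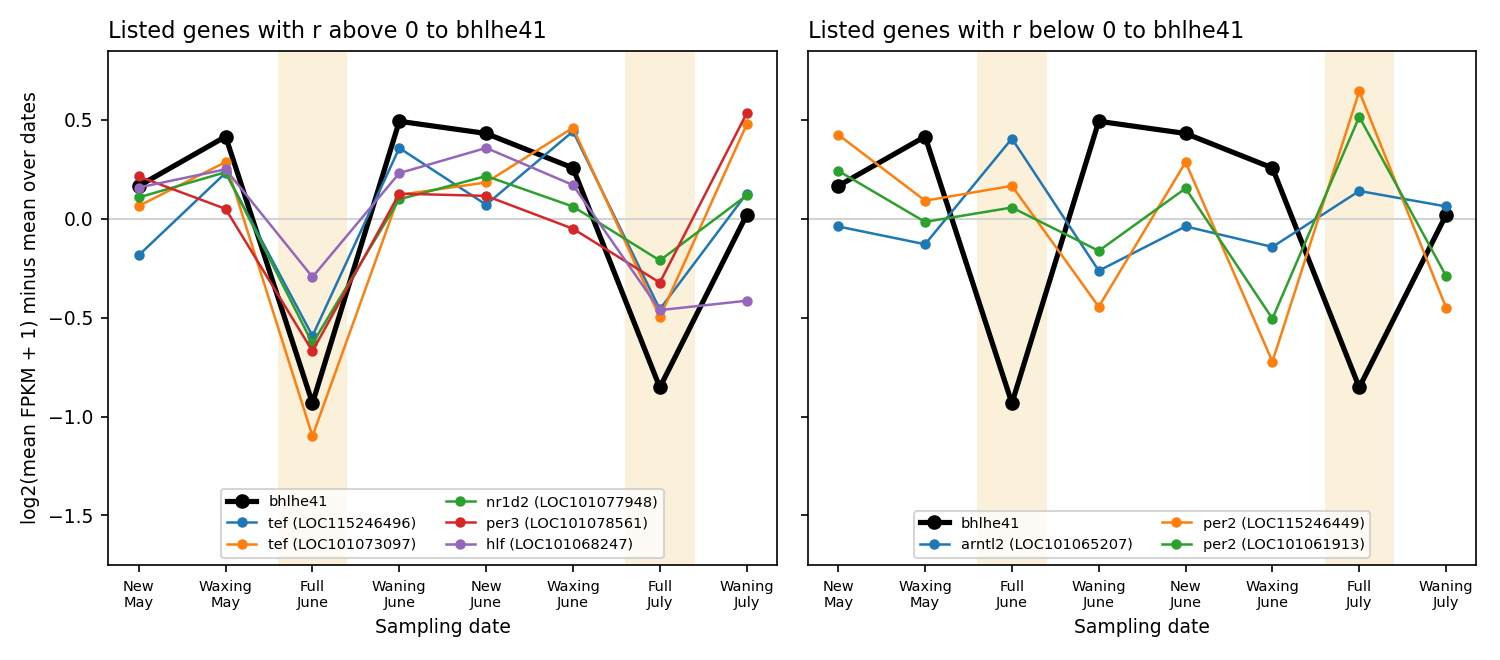
Log2(mean FPKM + 1) of each date minus the mean of these values over the dates (vertical axis), by sampling date, for bhlhe41 in black and for the listed clock genes that passed by tide. The hlf-like row LOC101068247, which did not pass, was added. The full-moon dates are shaded. The genes on the left, with r above 0 to bhlhe41, were low in the full moons, and arntl2 on the right was high in them, at 11.28 to 14.68 FPKM. The hlf-like row was about as low in the waning moon of July, at a mean of 16.36 FPKM. Its means in the full moons of June and July were 17.87 and 15.80 FPKM.

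Between new and full moon 0 of the 39 listed genes passed by limma, where 0.0176% of all genes did. Of them 19 had an unadjusted p under 0.05 (12% of all genes did), 24 were higher at new moon and 15 lower, and the median log2 difference was 0.070 against -0.0091 over all genes. The listed genes with the highest estimates were per1 at 1.17 (SE 0.26, adjusted p = 0.126) and tef (LOC101073097) at 0.92 (SE 0.22, adjusted p = 0.150).

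**Figure D3:**
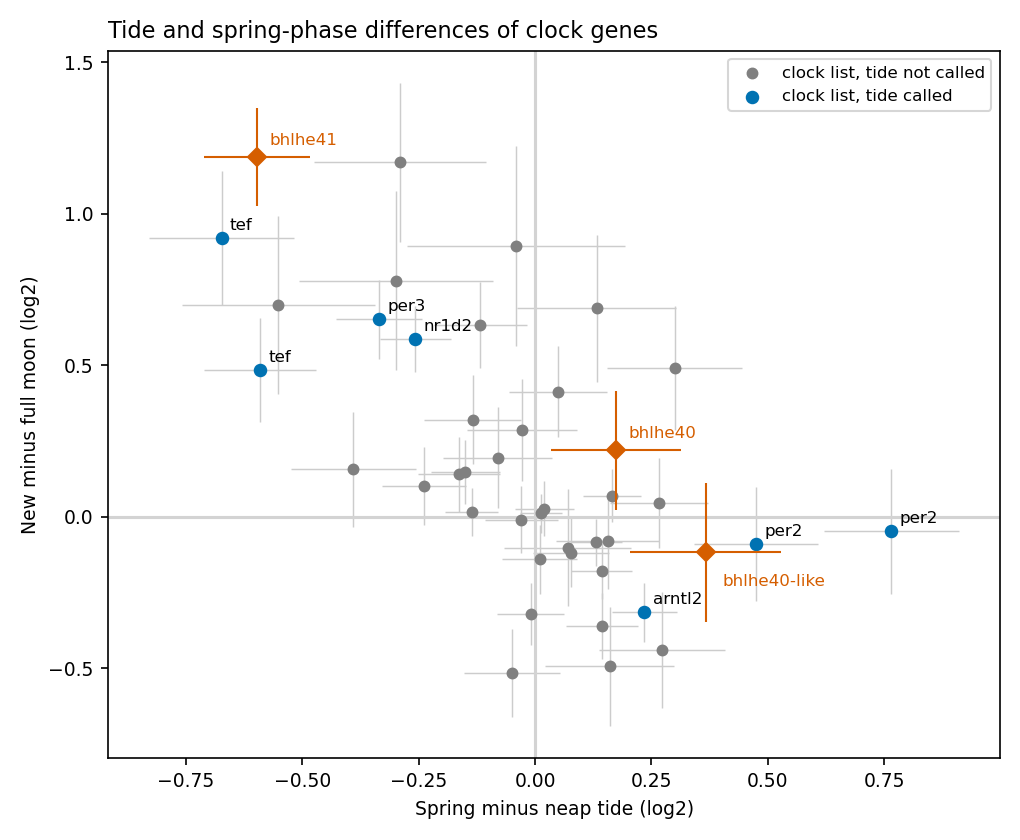
Log2 difference between spring and neap tide (horizontal axis) and between new and full moon (vertical axis) for the DEC genes (orange diamonds) and the 39 other clock genes (circles, blue where the tide difference passed), with bars of 1 SE. bhlhe41 lies at -0.60 and 1.19, at the upper left, and bhlhe40, which did not pass, at 0.17 and 0.22.

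Few of the other relatives and partners of the DEC proteins passed. Of 12 HES and HEY genes tested, which carry the same Orange domain, 1 passed by tide (8.33%, against 5.63% of all genes), hes4, a Notch-pathway repressor, at a log2 difference of -0.56 (SE 0.12, adjusted p = 0.0182 by limma). Of 15 genes of known DEC binding partners and co-repressors, 1 passed by tide (6.67%, against the same 5.63%), the retinoid X receptor gene rxrg (LOC101079168), at -0.27 (SE 0.067, adjusted p = 0.0286). Both shares are near the background, and for both genes the call was lost with date means as samples (adjusted p = 0.232 each) and with summed FPKM in the model (0.505 each). In the new-to-full contrast 0 of the 12 and 0 of the 15 passed by limma, with 0 and 1 at an unadjusted p under 0.05. Of all genes 0.0176% passed there and 12% had an unadjusted p under 0.05. With so few genes passing, a count of 0 in a short list says little about its members.

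The genes whose levels followed bhlhe41 most closely were found by Pearson's r of log2(FPKM + 1) over the 24 fish, among 15872 tested genes with a name. This is a description: the fish share libraries and dates, the median r of all these genes was 0.046, and the full-moon fish form a cluster of their own, so r within the 18 other fish is given beside it. The highest were tef (LOC115246496, r = 0.85, and 0.49 within the 18), the LPIN1-like gene of a phosphatidate phosphatase (LOC101064440, 0.85 and 0.49) and nr1d2 (LOC101077948, 0.84 and 0.39). After them came tef (LOC101073097, 0.82 and 0.14), the ASB5-like gene LOC101062948 (0.82 and 0.37), the ARL9 gene LOC101078781 (0.81 and 0.63), fam184a (0.80 and 0.46) and hlf (LOC101068247, 0.79 and 0.73).

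The most opposite were the Rab-regulator gene RIN3 (LOC105417863, -0.89, and -0.70 within the 18), the ATF4-like stress-response factor (LOC101075957, -0.86 and -0.10), arntl2 (LOC101065207, -0.86 and -0.74), the CDKN1B-like cell-cycle inhibitor (LOC101079162, -0.85 and -0.55) and sec11a, a signal peptidase subunit (-0.85 and -0.30). Of these, 4 of the 8 most like and 1 of the 5 most opposite genes are in the clock list, which held 39 of the 17058 genes tested. The ranking used the full-moon values by which bhlhe41 was chosen, so this count is not a separate result. Within the 18 fish only hlf (LOC101068247), RIN3, arntl2 and the ARL9 gene of the 13 kept an absolute r above 0.6. For deviations from date means over the 24 fish the order was another. There r was highest for tef (LOC115246496, 0.72) and tef (LOC101073097, 0.62). It was 0.50 for that hlf row, 0.49 for the ARL9 gene, -0.51 for arntl2 and -0.42 for RIN3. Which genes stay like bhlhe41 apart from the full-moon level thus depends on the measure.

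**Figure D4:**
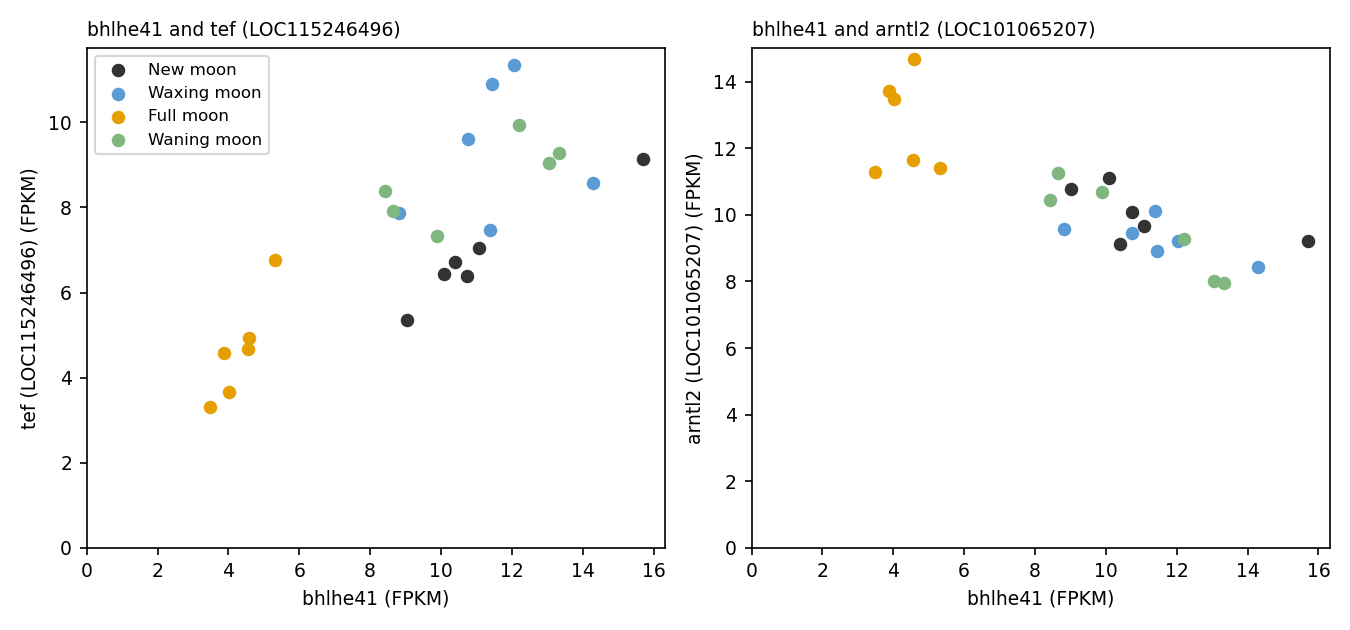
Level of bhlhe41 in FPKM (horizontal axes) against tef (LOC115246496, left) and arntl2 (LOC101065207, right) in FPKM (vertical axes), 1 point per fish, coloured by moon phase. The full-moon fish, at 3.49 to 5.33 FPKM of bhlhe41, form a group apart in both panels.

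Some properties of whole libraries differed between dates. The mean FPKM sum per library was 509 kFPKM (SD 21.8) in the full moon of June and 541 kFPKM (SD 12.5) in the full moon of July. These were the highest of the series, against 442 to 501 on the others, but single fish overlapped. Fish 3 of the full moon of June, at 483.6 kFPKM, lay below fish 1 of the new moon of May (513.4) and fish 1 of the waxing moon of May (518.7). The new-to-full difference of bhlhe41 was 1.26 (SE 0.19) when libraries were rescaled to a common sum and 1.15 (SE 0.17) with the log2 sum in the model. The pituitary score averaged 10.7 and 10.8 on the full-moon dates and 11.1 and 10.3 on the new-moon dates, where bhlhe41 stood at 10.06 and 12.29 FPKM. On the neap-tide dates the mean score was lower, at 8.55 and 9.17 at waxing moon and 9.62 and 9.22 at waning moon. The 8.55, of the waxing moon of May, had an SD of 3.5 and held a fish at 4.542. The part of the score in the tide difference of bhlhe41 was not tested.

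Markers of the brain and pituitary were present in every library. Summed neuron markers gave 1770 to 2518 FPKM (median 1993) at full moon and 2018 to 2561 FPKM (median 2293) elsewhere. Summed pituitary hormones gave 20140 to 65890 FPKM (median 44480) at full moon and 498.8 to 53260 FPKM (median 21840) elsewhere. In fish 2 of the waxing moon of May hormone transcripts were lowest, with a score of 4.542, and bhlhe41 was 14.3 FPKM. For none of 8 groups of markers (pituitary, neurons, astroglia, oligodendrocytes, microglia, endothelium, erythrocytes and photoreceptors) did both full-moon dates lie apart from the others. None of their 57 tested markers passed between new and full moon by limma. As only 0.0176% of all genes passed there, this count cannot show that the cell make-up was steady. Of the photoreceptor list only rho was matched. In bulk tissue, fewer cells of a type and less RNA per cell cannot be told apart. The rhodopsin gene rho ran from 0 to 238.41 FPKM, and its part in the result was not tested.

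Within the 6 dates outside the full moons, bhlhe41 date means were correlated with 12 measures: bhlhe40, the bhlhe40-like gene, the FPKM sum, the pituitary score and the sums of the 8 marker groups. None passed after adjustment over the 12. The lowest exact permutation p, two-sided, was 0.0389 (adjusted 0.275) for the opsin gene, with Pearson's r of 0.81 and Spearman's rho of 0.71 (exact permutation p = 0.136, adjusted 0.817), and r was 0.35 without the 2 farthest dates. For the bhlhe40-like gene r was -0.82 (exact permutation p = 0.0458, adjusted 0.275) and rho -0.54 (p = 0.297, adjusted 0.839), and r was 0.28 without the 2 farthest dates. Neither r was kept over the remaining dates, but leaving out the farthest dates also narrows the range of the measure. For bhlhe40 r was 0.032 (exact permutation p = 0.954).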

How the data were processed

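RNA of brain pieces from male grass puffers was sequenced as poly-A-selected, strand-specific paired-end libraries, per the labels' protocols. The authors deposited FPKM values per gene, per the file headers with gene names from Takifugu rubripes models. The submitters' processing notes name HISAT2 2.0.4 and RSEM 1.2.12, without a genome build, which the sources used here do not give. The row of bhlhe41 sums 2 transcript models, which were not separated. Counts were not used, so absolute depth is unknown; relative depth, from the smallest value steps of 23 genes (within 0.25 of a whole step), ran from 0.914 to 1.12.

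Values were tested as log2(FPKM + 1), which understates changes of low genes, with limma 3.58.1 and statmod 1.5.0 (R 4.3.3), using an intensity trend, 4 moon phases as groups and sampling date as a random block (correlation 0.264). The weekly trend came from another model, with tide and sampling number in place of the moon phases and the same block (correlation 0.276). Genes with a mean of at least 1 FPKM entered, and p-values were adjusted by Benjamini-Hochberg with a threshold of 0.05. A single correlation serves all genes, so p-values of genes with a larger spread between dates may be too small; on simulated data with each gene's own spread, the fit called more unchanged genes than its threshold implies. Date means as samples were the alternative.

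Members and gene lists were chosen with earlier results of these data known. Clock genes, relatives, partners, hypoxia and sleep genes were named where they passed, and the 8 most like and 5 most opposite genes by r. Correlations of date means were planned over 8 dates and run over 6, because the full moons form a separate cluster. Values came from Python 3.11.15 with scipy 1.17.1.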

Additional observations from a re-analysis of the deposited data

Results flagged for a closer look

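Of 92 groups of 6 fish (each of 23 named genes in each moon phase), 9 held a fish whose gap to its nearest neighbour exceeded the critical value of Dixon's test for 6 values, and chance gives about 1 in 20 groups. For bhlhe41 this was fish 2 of the new moon of June, at 15.71 FPKM. For the bhlhe40-like gene (LOC101063749) it was fish 1 of the full moon of July, at 48.13 FPKM. In the clock list it was fish 3 of the full moon of July for tef (LOC101073097, 21.7 FPKM), fish 1 of the new moon of June for per3 (LOC101078561, 8.84 FPKM), fish 1 of the waning moon of June for per2 (LOC101061913, 2.76 FPKM) and fish 2 of the waxing moon of June for nr1d2 (LOC101077948, 34.99 FPKM). The LPIN1-like gene (LOC101064440) had 2 such fish, fish 2 of the new moon of June at 16.05 FPKM and fish 3 of the full moon of July at 10.98 FPKM. The last was fam184a in fish 3 of the full moon of June, at 20.65 FPKM. Fish 2 of the new moon of June stood out both for bhlhe41 and for the LPIN1-like gene, and without it the new-to-full log2 difference of bhlhe41 was 1.09 (SE 0.15), against 1.19 with it.

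The bhlhe40-like gene moved in opposite directions in the 2 lunar cycles. All new-moon fish lay above all full-moon fish in the first cycle (log2 difference 0.169) and below them in the second (-0.403). The margins were narrow, at 38.35 against 38.3 FPKM in the first cycle and 34.24 against 34.43 FPKM in the second. For per2 (LOC115246449) all waxing-moon fish lay above all waning-moon fish in the first cycle (0.559) and below them in the second (-0.277). Here too the margins were narrow, at 5.85 against 5.66 FPKM and 3.76 against 4.02 FPKM. These differences between cycles were not tested.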

How the results depend on the processing

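The full-moon values of bhlhe41 kept their direction under all 9 alternative settings and with any fish or date left out: the new-to-full log2 difference ran from 1.15 to 1.34 over settings and from 1.06 to 1.31 over fish and dates left out, and the tide difference from -0.71 to -0.54 and from -0.72 to -0.48. The gene was chosen by these values. As all full-moon fish lay below all others, leaving out a fish or date could not turn the new-to-full direction, so only the sizes are informative there. Waxing against waning moon ran from -0.17 to 0.31 with a fish or date left out, and the weekly change from -0.11 to -0.033. For bhlhe40 the tide difference ran from -0.0041 to 0.35 with a fish or date left out and was -0.18 with summed FPKM in the model; the new-to-full difference ran from -0.14 to 0.58. For the bhlhe40-like gene the new-to-full difference ran from -0.39 to 0.15 and was 0.023 with summed FPKM in the model; its tide difference ran from 0.098 to 0.63. The cause was not tested.

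Counts of called genes moved far more. By tide they were 604 with a minimum mean of 5 FPKM, 2986 with TPM scaling, 1 with date means as samples and 5 with summed FPKM in the model, against 961, and 3 to 5631 with a fish or date left out. Between new and full moon they were 6 without a filter and 0 with date means as samples, against 3, and 0 to 159 with a fish or date left out. Waxing against waning moon gave 0 to 858, the highest without the waxing moon of June. The weekly trend gave 11 without a filter, 1 with TPM scaling, 7 with median-ratio scaling, 6 with quantile normalization and 40 with summed FPKM in the model, against 0, and 0 to 49 with a fish or date left out.

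Clock-list calls by tide were 4 with a minimum mean of 5 FPKM, 0 with date means and 0 with summed FPKM, against 7, and 0 to 17 with a fish or date left out. Between new and full moon 1 was called without a filter, with TPM scaling or with quantile normalization, and 2 with summed FPKM, against 0, and 0 to 6 with a fish or date left out. TPM scaling shifted the median tide difference of all genes to -0.155, and under it 13 clock genes were higher and 26 lower, against 19 and 20. No gene of the 7 turned direction under any scaling, the covariate or date means. With date means as samples their adjusted p ran from 0.146, for tef (LOC115246496), to 0.270, for arntl2. Of the 13 genes most or least like bhlhe41, 5 stayed named by Spearman and 1 within the 18 fish outside the full moons.

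Replicate numbers did not pair the fish: deviations from date means of same-numbered fish correlated at a median of 0.016 (23 of 84 pairs over 0.1). With the replicate block, 854 genes were called by tide, 5 between new and full moon and 1 clock gene between new and full moon, the adjusted p of arntl2 by tide was 0.0527, and bhlhe41 stayed at 1.19 (SE 0.16).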

Other observations

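DEC genes are also known as targets of the hypoxia-inducible factors. Of 30 hypoxia-related genes tested, 1 passed by tide (3.33%, against 5.63% of all genes): pfkfb4 (LOC101075480), a regulator of glycolysis, was higher at spring tide by a log2 difference of 0.38 (SE 0.10, adjusted p = 0.0347 by limma). It had 31.77 to 44.17 FPKM at full moon and 22.3 to 39.58 FPKM on the other dates. The difference was 0.12 with summed FPKM in the model (adjusted p = 0.916) and 0.25 under TPM scaling (0.0650), and the adjusted p was 0.238 with date means as samples. The call was also lost without 7 of the 24 fish, 1 at a time. Between new and full moon 0 of the 30 passed by limma (0.0176% of all genes did) and 8 had an unadjusted p under 0.05 (12% of all genes did). The median log2 difference was -0.148, against -0.0091 over all genes.

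DEC2 is known in mammals for a role in sleep length. Of 5 sleep and arousal genes tested, 1 passed by tide, where 5.63% of all genes did: hrh3 (LOC101075762), the histamine H3 receptor, was lower at spring tide by a log2 difference of -0.43 (SE 0.12, adjusted p = 0.0385 by limma). It had 8.09 to 11.09 FPKM at full moon and 7.9 to 19.52 FPKM on the other dates. The call was lost with date means as samples (adjusted p = 0.227), with summed FPKM in the model (-0.27, adjusted p = 0.862), under median-ratio scaling (0.0562) and quantile normalization (0.0559), and without 9 of the 24 fish, 1 at a time. Between new and full moon 0 of the 5 passed by limma, where 0.0176% of all genes did. At an unadjusted p under 0.05 there were also 0, against 12% of all genes.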
